A study of Mus musculus with 15 samples.

Results

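The 39 protein-coding genes described here encode collagen chains of mouse, among them Col10a1, a chain best known from hypertrophic cartilage. They were taken by symbol from the 44 protein-coding genes named Col, a number, a and a number. Left out were 5 chains that mark cartilage (Col2a1, Col9a1, Col9a2, Col9a3 and Col11a2). The full table held 54495 genes. Of the 39, 26 reached 1 FPKM (fragments per kilobase of transcript, scaled to library size) in at least 2 of 15 libraries and were tested, and 13 did not. All libraries came from mouse embryonic fibroblasts, primary cells grown out of e13.5 embryos in DMEM with serum at 3% oxygen, and every one of them lacked the telomerase RNA gene mTR and the Werner syndrome helicase gene Wrn. Cells labelled DM carried wild-type p53 and cells labelled TM carried p53N236S on both alleles. The labels gave generation 1, 3 or 5 of the mice: G1DM, G1TM and G3DM had 2 libraries each, and G3TM, G5DM and G5TM had 3 each. The series was designed to ask how this p53 change alters the ageing of Werner syndrome mice, and its wild-type and p53-mutant control fibroblasts were not analysed here. No label says whether the libraries of a group came from separate embryos. Xist at 1 FPKM or more was found in 1 G1DM, 1 G5DM and 2 G5TM libraries. Y-linked RNA was found in 1 G1DM, 2 G5DM and 1 G5TM libraries, so these groups each held libraries of more than 1 embryo. In G1TM, G3DM and G3TM all libraries were of the same kind, which cannot show whether they came from separate embryos. The p-values measure the spread between these libraries, and how much of it is technical was not tested.

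Collagens are trimers of chains wound into a triple helix, and each gene encodes 1 type of chain. Fibrillar chains form the tensile fibres of connective tissue, network chains form the sheets of basement membranes and related matrices, beaded-filament chains link cells to fibres, and the fibril-associated chains decorate fibre surfaces. Fibroblasts are the main producers of fibrillar and type VI collagen, and in culture they also make type IV collagen. Chains are hydroxylated and folded in the endoplasmic reticulum, exported, trimmed and then crosslinked outside the cell.

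The 15 libraries held 17448588 to 29571111 reads on genes, recovered from the FPKM values. Terc was at 0 in all but 1 library and at 0.109 FPKM in that one, and Wrn was between 0.0447 and 0.599 FPKM. All 6 G3TM and G5TM libraries differed from the remaining 9 in several housekeeping genes. Rpl12, a ribosomal protein gene, was at 300.4 to 609.7 FPKM in the 6 and at 3.84 to 6.77 FPKM in the 9. The mitochondrial rRNA gene mt-Rnr2 was at 44.7 to 73.6 FPKM in the 6 and at 1.48 to 3.76 FPKM in the 9. The genotype comparisons in G3 and G5, and those of later TM generations with G1TM, therefore cross this split, and there a difference between groups and a difference between sets of libraries cannot be told apart. The 9 libraries hold the genotype comparison in G1 and all DM comparisons, and the 6 hold G5TM against G3TM. All 10 fibroblast markers reached 1 FPKM in at least 2 libraries. Vim was at 620 to 1327 FPKM and Pdgfrb at 49.9 to 94.7 FPKM, while Pdgfra went down to 6.98 FPKM and S100a4 to 4.95 FPKM. The matrix proteoglycan genes Dcn and Lum were at 0.838 to 1.85 FPKM and 0.914 to 1.85 FPKM in the 6. In the 9 they were at 6.74 to 29.2 FPKM and 5.64 to 34.8 FPKM. Fn1 was also lower in the 6 (330 to 741 FPKM) than in the 9 (753 to 1632 FPKM). Twist1 was higher in the 6 (124 to 164 FPKM against 32.9 to 69.4 FPKM), as was Fbln1 (27.0 to 48.6 FPKM against 10.7 to 26.1 FPKM). Other cell types left a mixed record. Of the 8 endothelial markers, 4 were below 1 FPKM in every library (among them Pecam1, at most 0.307 FPKM), while Flt1 reached 7.62 FPKM. Of the 8 epithelial markers, 4 were below 1 FPKM throughout (among them Cdh1, at most 0.447 FPKM), while the keratin genes Krt18 and Krt8 reached 41.2 and 29.5 FPKM. Of the 8 macrophage and leukocyte markers only Ptprc was below 1 FPKM throughout (at most 0.108 FPKM), while Lyz2 reached 233 FPKM, C1qa 64.5 FPKM and Tyrobp 26.8 FPKM. Of the 8 skeletal muscle markers, Myf5 and Ckm were below 1 FPKM throughout, while Actc1 reached 147 FPKM and Myog 61.6 FPKM. The part of these cell types in the collagen differences was not tested.

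Collagen RNA in these cells was dominated by type I. The 39 genes together summed to between 2166 and 5421 FPKM per library, which was 0.515% to 2.27% of all FPKM. Col1a1 and Col1a2, the chains of type I collagen, held 46.4% to 58.5% of the collagen sum. The 9 fibrillar chains held 66.7% to 73.9%, the type IV chains 6.49% to 13.9%, the type VI chains 7.70% to 15.4% and the fibril-associated chains 1.61% to 6.72%. The short-chain network genes held 0.157% to 3.15%. Ordered by the median over 15 libraries, Col1a1 stood first at 1203 FPKM, then Col1a2 (368 FPKM), Col5a1 (219 FPKM), Col6a1 (210.5 FPKM), Col3a1 (187 FPKM), Col4a2 (169 FPKM), Col4a1 (158 FPKM), Col5a2 (147 FPKM), Col12a1 (118 FPKM), Col6a2 (81.7 FPKM) and Col6a3 (66.7 FPKM). The ranges of neighbours in this order from Col1a2 to Col6a3 overlapped over the libraries, whereas the lowest Col1a1 value (973 FPKM) was above the highest of Col1a2 (695 FPKM). The other 15 tested genes had medians of 29.6 FPKM (Col16a1) or less.

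**Figure D1:**
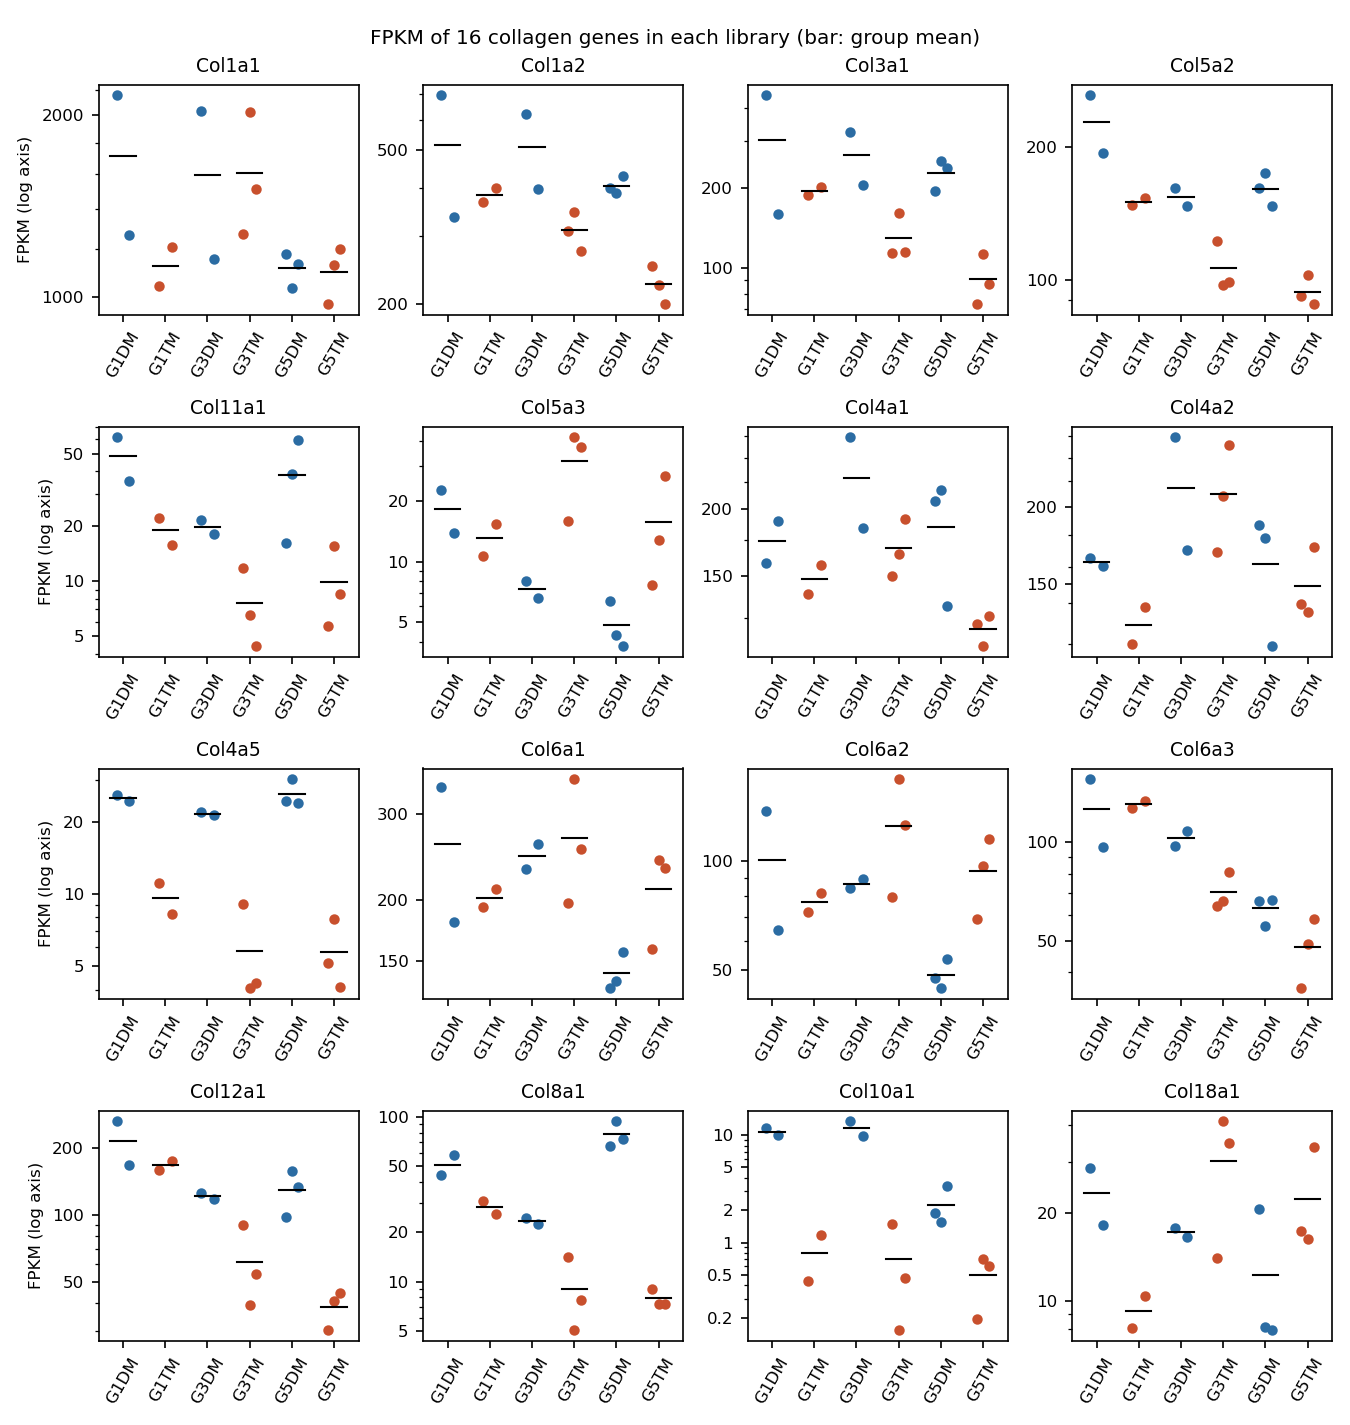
FPKM of 16 collagen genes in each library on log axes, one panel per gene, with DM in blue, TM in orange and a bar at each group mean. Col4a5 and Col10a1 are lower in all 8 TM libraries than in all 7 DM libraries, Col8a1 is lowest in the 6 libraries of G3TM and G5TM, and Col1a1 overlaps between TM and DM in G3 and G5 but not in G1.

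The most regular difference between the genotypes was in 3 low or middling network chains. Col4a5, Col4a6 and Col10a1 were lower in all 8 TM libraries than in all 7 DM libraries. Of the 13562 genes tested, 3.81% were lower in all TM libraries, 3.86% were higher in all TM libraries, and no collagen gene was among the latter. These 3 were picked out after their values were seen.

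Col10a1 encodes the type X chain, a short-chain network collagen best known from hypertrophic cartilage. It measured 11.6 and 9.92 FPKM in G1DM against 0.434 and 1.17 FPKM in G1TM. In G3 it measured 13.5 and 9.78 FPKM in DM against 1.48, 0.152 and 0.463 FPKM in TM. In G5 the DM libraries were at 1.89, 1.55 and 3.33 FPKM and the TM libraries at 0.196, 0.704 and 0.609 FPKM. The groups did not overlap in any generation, and the mean was 13.4-fold lower in TM in G1, 16.7-fold lower in G3 and 4.49-fold lower in G5. On the log2(FPKM + 1) scale, which understates the change of low genes, the difference was -2.73 ± 0.354 in G1 (SE; limma, Benjamini-Hochberg adjusted p = 0.00225), -2.96 ± 0.323 in G3 (adjusted p = 6.65e-05) and -1.09 ± 0.289 in G5 (adjusted p = 0.0062). The G1 value lies within the 9 libraries, and without G1TM replicate 1 its adjusted p was 0.0508. Col10a1 lies inside an intron of Nt5dc1 on the opposite strand, a gene that reached at most 3.12 FPKM, and no source used here says that the counting used strand. Summed cartilage markers were at 63.3 to 88.1 FPKM in G1DM, 28.2 to 34.1 FPKM in G1TM, 109 to 156 FPKM in G3DM and 82.4 to 204 FPKM in G3TM, and at 26.3 to 51.3 FPKM in G5DM and 109 to 282 FPKM in G5TM.

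Col4a5 and Col4a6 encode the alpha5 and alpha6 chains of type IV collagen, which assemble with each other in basement membranes of skin and smooth muscle. They lie head to head on the X chromosome with 1308 bases between their annotated starts. Col4a5 measured 25.8 and 24.5 FPKM in G1DM, 22.1 and 21.4 FPKM in G3DM, and 24.5, 30.3 and 24.1 FPKM in G5DM. In TM it measured 11.1 and 8.28 FPKM in G1, 9.14, 4.04 and 4.25 FPKM in G3, and 5.17, 7.91 and 4.08 FPKM in G5. The 7 DM values lay between 21.4 and 30.3 FPKM, and the TM mean was 2.60-fold lower in G1, 3.73-fold lower in G3 and 4.60-fold lower in G5. The G3 difference of -1.81 ± 0.295 (limma, adjusted p = 0.000849) and the G5 difference of -2.05 ± 0.264 (limma, adjusted p = 7.54e-05) passed the test under all 23 alternatives, which changed the pseudocount, filter, scaling or model or left out 1 library. In G1 the difference was -1.31 and did not pass (limma, adjusted p = 0.0671), with 4 of 24 alternatives below the threshold and the rest above it (adjusted p from 0.0248 to 0.494).

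Col4a6 was the weaker partner at 2.14 and 1.76 FPKM in G1DM, 3.08 and 2.90 FPKM in G3DM and 1.88, 1.83 and 1.40 FPKM in G5DM. Its TM values were 0.805 and 0.646 FPKM in G1, 1.12, 0.562 and 0.619 FPKM in G3, and 0.515, 0.567 and 0.418 FPKM in G5. Both partners were thus lower in TM in every generation, and their ratio stayed between 6.87 and 17.2 in all libraries. Col4a6 fell by 1.19 on the log2 scale in G3 (SE 0.174, limma adjusted p = 0.000424) and by 0.85 in G5 (SE 0.156, limma adjusted p = 0.000688), in both cases under all 23 alternatives. The G1 difference of -0.77 did not pass (limma, adjusted p = 0.0664). Col4a6 was below 1 FPKM in every G1TM and G5TM library, so it passed the filter through its DM values and 1 G3TM library. Both genes are X-linked, and the libraries differ in sex-linked RNA. Col4a5 was at 21.4 to 24.5 FPKM in the 4 DM libraries with Xist at 1 FPKM or more and at 24.1 to 30.3 FPKM in the 3 with Y-linked RNA. Within TM the same 2 kinds of library spanned 4.08 to 11.1 FPKM and 4.04 to 9.14 FPKM. In G3 both DM libraries had Xist and all 3 TM libraries had Y-linked RNA, and there the effects of sex and of genotype cannot be told apart.

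The upstream sequences of 5 genes are shown: the 3 above, Col8a1, which had the largest fall in G5 on the log2(FPKM + 1) scale, and Col5a3, which rose. Each comes from the RefSeq promoter entry on GRCm38.p6, up to 250 bases that end just before the start of the gene in the table, 5′ to 3′ on the gene's strand. Capitals mark the TATA box (TATAAA), the CCAAT box (CCAAT) and the GC box (GGGCGG), each searched on both strands. The windows are chrX:141475169-141475384 (+) for Col4a5, chrX:141474077-141474326 (-) for Col4a6, chr10:34389731-34389980 (+) for Col10a1, chr16:57754738-57754987 (-) for Col8a1 and chr9:20815068-20815317 (-) for Col5a3. They hold no annotated exon, and the Col10a1 window lies in an intron of Nt5dc1.
Col4a5: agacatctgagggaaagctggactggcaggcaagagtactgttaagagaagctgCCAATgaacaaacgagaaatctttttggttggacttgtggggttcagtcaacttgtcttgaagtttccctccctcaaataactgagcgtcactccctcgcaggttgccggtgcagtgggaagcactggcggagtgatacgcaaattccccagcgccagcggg
Col4a6: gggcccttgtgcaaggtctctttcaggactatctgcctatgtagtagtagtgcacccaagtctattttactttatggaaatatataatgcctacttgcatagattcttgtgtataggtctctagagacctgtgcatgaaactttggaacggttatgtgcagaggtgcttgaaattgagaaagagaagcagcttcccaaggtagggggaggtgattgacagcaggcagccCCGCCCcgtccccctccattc
Col10a1: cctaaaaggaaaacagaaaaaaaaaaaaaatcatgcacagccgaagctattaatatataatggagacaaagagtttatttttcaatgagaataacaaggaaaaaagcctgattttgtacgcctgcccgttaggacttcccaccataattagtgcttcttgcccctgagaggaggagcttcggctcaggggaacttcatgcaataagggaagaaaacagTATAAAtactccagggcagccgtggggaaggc
Col8a1: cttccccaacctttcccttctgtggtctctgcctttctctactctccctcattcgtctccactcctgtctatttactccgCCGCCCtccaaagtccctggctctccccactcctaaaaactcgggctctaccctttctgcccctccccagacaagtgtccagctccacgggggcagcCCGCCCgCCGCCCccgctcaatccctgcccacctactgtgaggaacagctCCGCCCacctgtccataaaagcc
Col5a3: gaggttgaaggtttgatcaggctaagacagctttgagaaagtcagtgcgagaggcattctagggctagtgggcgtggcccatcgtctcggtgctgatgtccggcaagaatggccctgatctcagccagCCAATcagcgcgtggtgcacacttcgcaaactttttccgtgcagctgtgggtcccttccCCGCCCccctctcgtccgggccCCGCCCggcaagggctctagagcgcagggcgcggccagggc

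The Col10a1 window had a TATA box, no CCAAT box and no GC box, and its GC content was 41.6%. Col8a1 had 4 GC boxes and neither of the other motifs in 60.8% GC, and Col5a3 had 2 GC boxes and a CCAAT box in 62.8% GC. The 2 type IV windows as printed shared no motif, with a CCAAT box in Col4a5 and a GC box in Col4a6. Counted over whole entries, which run past the gene start, Col4a5 held a GC box too. Of 27025 such entries, 13.0% held the TATA box, 34.5% the CCAAT box and 32.9% the GC box. Of the 20 tested collagen genes with an entry near the start used here, 2 (Col3a1 and Col10a1) held the TATA box, 8 the CCAAT box and 13 the GC box. A match describes letters in the window and is no measured binding site.

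In G1, TM against DM within the 9 libraries, 1 of 26 tested collagen genes was called, and it was Col10a1. The share over all genes was 1.17% (0.361% higher and 0.811% lower), and 10 of the 26 had an unadjusted limma p under 0.05. No share of all genes at that unadjusted threshold was computed, here or for the unadjusted counts given further on. Those counts therefore have no baseline. The differences leaned one way without passing the test: 25 of 26 were below 0, with a median of -0.45 beside 0.02 for all genes. All 9 fibrillar chains, all 4 tested type IV chains and all 3 fibril-associated chains were below 0, and Col6a3 alone was above it at 0.09. The library G1DM replicate 1 had the highest value of all 15 in Col1a1, Col1a2, Col3a1, Col5a1, Col5a2, Col11a1, Col12a1, Col14a1, Col16a1, Col6a3 and Col8a2. Col8a2, a short-chain partner of Col8a1, shows the spread: it measured 15.3 and 1.68 FPKM in G1DM and 1.05 and 0.772 FPKM in G1TM, and its difference of -1.79 did not pass (limma, adjusted p = 0.229).

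In G3, 1 collagen gene rose and 7 fell in TM, where 32% of all tested genes were called (18% higher and 13.9% lower). In G5, 2 rose and 12 fell, where 58.7% of all tested genes were called (30.3% higher and 28.4% lower). The median difference of the 26 was -0.56 in G3 and -0.58 in G5, beside 0.01 and 0.02 for all genes. Both comparisons cross the split between the 6 and the 9 libraries. In G3 both DM libraries had Xist at 1 FPKM or more and all 3 TM libraries had Y-linked RNA. Sex and genotype cannot be told apart in any G3 difference either. Of the 26, 5, Col5a2, Col11a1, Col24a1, Col12a1 and Col8a1, were lower in all 6 than in all 9, as were 9.63% of all genes, and no collagen gene was higher in all 6, as were 17.1% of all genes. Col24a1 was below 1 FPKM in all 6 and passed the filter only through the 9. In bulk RNA, fewer cells of a kind and less RNA per cell cannot be told apart.

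**Figure D2:**
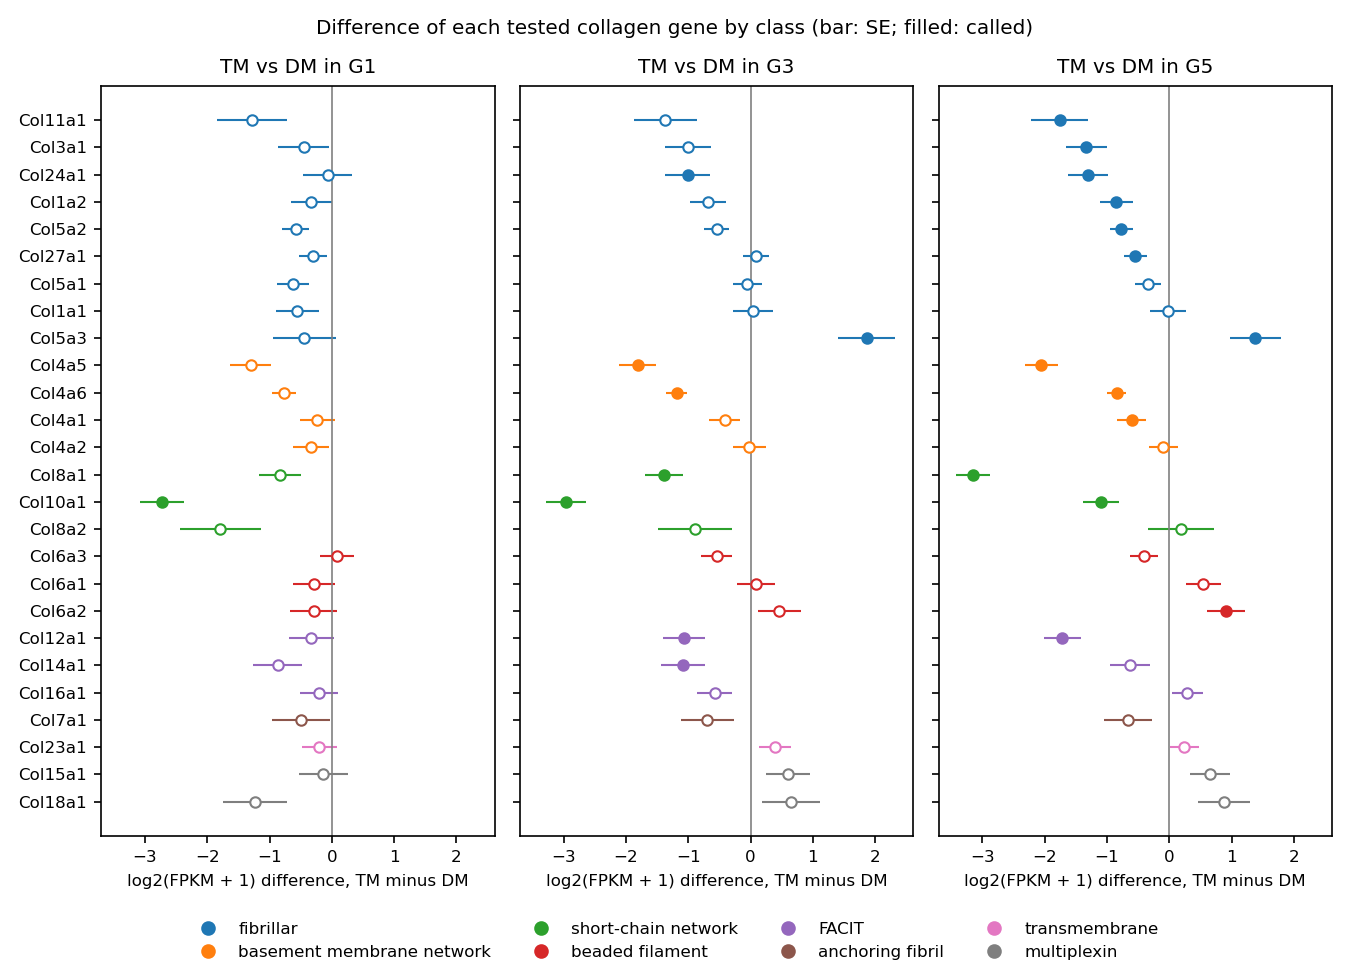
Difference of TM from DM on the log2(FPKM + 1) scale for the 26 tested collagen genes in each generation, coloured by class, with the SE as bar and filled points where the adjusted p was under 0.05. In G1 all points but Col6a3 lie below 0 and only Col10a1 is filled, and in G5 the filled points run from Col8a1 at -3.14 to Col5a3 at 1.38.

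Among the fibrillar chains, Col1a2 fell in G5 while its partner Col1a1 was not called. Col1a1 measured 2158 and 1265 FPKM in G1DM, 1044 and 1211 FPKM in G1TM, 2029 and 1157 FPKM in G3DM, 1272, 2022 and 1508 FPKM in G3TM, 1180.2, 1036 and 1133 FPKM in G5DM and 973, 1128 and 1203 FPKM in G5TM. TM and DM overlapped in G3 and G5, and the differences were 0.04 ± 0.319 and -0.02 ± 0.286 (SE), neither called (limma, adjusted p = 0.946 and 0.95). Col1a2 measured 695 and 335 FPKM in G1DM, 368 and 400.4 FPKM in G1TM, 622 and 397 FPKM in G3DM, 310.0, 347 and 274 FPKM in G3TM, 398, 388 and 429 FPKM in G5DM and 252, 224 and 199.8 FPKM in G5TM. All G5TM values lay below all other libraries, and Col1a2 fell by 0.85 in G5 (SE 0.265, limma adjusted p = 0.0146). That call was lost without G5TM replicate 3 (adjusted p = 0.0522) and when the trend on gene length was removed (adjusted p = 0.701).

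Col3a1, the chain of type III collagen that is laid down with type I in elastic tissues, measured 447 and 159 FPKM in G1DM, 187 and 201 FPKM in G1TM, 324 and 206 FPKM in G3DM, 114, 161 and 114 FPKM in G3TM, 194, 251 and 237 FPKM in G5DM and 72.8, 112 and 86.9 FPKM in G5TM. It fell by 1.33 in G5 (SE 0.331, limma adjusted p = 0.00433), to a mean 2.51-fold lower. That call was lost when the trend on gene length was removed (-0.79, adjusted p = 0.0626), and quantile normalization gave -2.13. In G3 its groups did not overlap either, but -1.01 did not pass (limma, adjusted p = 0.0529). Col5a1, the main chain of the type V collagen that starts type I fibrils, measured 351 and 263 FPKM in G1DM, 187 and 206 FPKM in G1TM, 293 and 219.6 FPKM in G3DM, 219, 271 and 247 FPKM in G3TM, 223, 201 and 191 FPKM in G5DM and 131, 158 and 202 FPKM in G5TM. It passed in no comparison. Its partner Col5a2 fell by 0.77 in G5 (SE 0.18, limma adjusted p = 0.00304), from a mean of 161 ± 13.8 FPKM (SD, n = 3) to 94.0 ± 7.52 FPKM (SD, n = 3), a call lost when the trend on gene length was removed (adjusted p = 0.261).

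The remaining type V chain went the other way. Col5a3 measured 22.6 and 14.0 FPKM in G1DM, 10.7 and 15.5 FPKM in G1TM, 7.99 and 6.63 FPKM in G3DM, 15.9, 41.7 and 37.2 FPKM in G3TM, 6.40, 4.32 and 3.79 FPKM in G5DM and 7.62, 12.9 and 26.5 FPKM in G5TM. It rose by 1.87 in G3 (SE 0.458, limma adjusted p = 0.0083) and by 1.38 in G5 (SE 0.409, limma adjusted p = 0.0117), with no overlap of the groups in either. Single libraries decided both calls: the adjusted p was 0.078 without G3DM replicate 2 and 0.0605 without G5TM replicate 3. The highest values were in G3TM replicates 2 and 3 and G5TM replicate 3. Those 3 also had the highest summed skeletal muscle markers of their groups (313, 137 and 106 FPKM, against 11.2 to 163 FPKM in the other 12 libraries). Their summed macrophage and leukocyte markers were 66.5, 396 and 116 FPKM, against 5.68 to 80.4 FPKM in the others. The part of these markers in the Col5a3 difference was not tested.

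Minor fibrillar chains fell in G5. Col11a1, which nucleates fibrils with type V chains, measured 61.8 and 35.5 FPKM in G1DM, 22.2 and 15.8 FPKM in G1TM, 21.6 and 18.1 FPKM in G3DM, 11.8, 6.51 and 4.39 FPKM in G3TM, 16.1, 38.8 and 59.7 FPKM in G5DM and 5.70, 15.6 and 8.52 FPKM in G5TM. It fell by 1.76 in G5 (SE 0.456, limma adjusted p = 0.00553) under all 23 alternatives, although the highest TM value and the lowest DM value lay close together. Col24a1, a low-level fibrillar chain, was at 0.125 to 0.281 FPKM in the 6 libraries and at 0.502 to 3.78 FPKM in the 9. It was below 1 FPKM in every G3TM and G5TM library, so it passed the filter only through the 9, where it was higher. It fell by 1.31 in G5 (limma, adjusted p = 0.00398) under all 23 alternatives and by 1.01 in G3 (limma, adjusted p = 0.0465). The G3 call was lost under 15 of 23 alternatives, among them the omission of any of 12 single libraries (G1DM, G1TM, G3DM, G3TM or G5TM, every replicate; adjusted p from 0.0567 to 0.258). Col27a1 was called lower in G5 (-0.55, limma adjusted p = 0.0218), lost that call without G5DM replicate 2, G5DM replicate 3 or G5TM replicate 1 (adjusted p = 0.0591, 0.108 and 0.1) and was at 0.20 after the trend on gene length was removed.

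Of the abundant type IV pair, Col4a1 was called in G5 only and Col4a2 between genotypes in no generation. Col4a1 measured 158 and 190.1 FPKM in G1DM, 139 and 157 FPKM in G1TM, 274 and 184 FPKM in G3DM, 149, 165 and 192 FPKM in G3TM, 207, 218 and 132 FPKM in G5DM and 121, 110.3 and 126 FPKM in G5TM. Col4a2 measured 165 and 160.4 FPKM in G1DM, 120.0 and 138 FPKM in G1TM, 259 and 170.0 FPKM in G3DM, 169, 208 and 251 FPKM in G3TM, 187, 178 and 119 FPKM in G5DM and 139, 135 and 172 FPKM in G5TM. Col4a1 was called lower in G5 (-0.60, limma adjusted p = 0.0367), but not when the trend on gene length was removed (adjusted p = 0.371). That call was lost without either of 2 G5DM libraries (replicate 1, adjusted p = 0.0821; replicate 2, 0.147) or any G5TM library (replicate 1, 0.0699; replicate 2, 0.093; replicate 3, 0.0604). Col4a2 differed by -0.02 in G3 and -0.10 in G5 and was not called. The genes share 22 bases on opposite strands, and Col4a1 shares 6081 bases with the antisense gene Gm15418 (at most 1.59 FPKM).

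On the log2(FPKM + 1) scale the largest fall in G5 was that of Col8a1, whereas by fold of group means that of Col24a1 (10.4-fold lower) exceeded it. Col8a1 encodes a short-chain network collagen made by vascular and corneal endothelium, smooth muscle and fibroblasts. It measured 44.1 and 58.4 FPKM in G1DM, 31.0 and 25.6 FPKM in G1TM, 24.3 and 22.3 FPKM in G3DM, 14.1, 5.05 and 7.70 FPKM in G3TM, 66.5, 94.3 and 73.5 FPKM in G5DM and 9.03, 7.33 and 7.32 FPKM in G5TM. TM lay below DM without overlap in each generation, by 1.81-fold in G1, 2.60-fold in G3 and 9.90-fold in G5. The log2 difference was -0.83 in G1 (limma, adjusted p = 0.295, not called), -1.39 ± 0.305 in G3 (adjusted p = 0.00465) and -3.14 ± 0.273 in G5 (adjusted p = 5.7e-06). The G5 call held under all 23 alternatives. The G3 call was lost when only G3DM and G3TM were fitted (adjusted p = 0.054).

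Type VI collagen, whose 3 main chains form beaded filaments around fibroblasts, split between its chains. Col6a1 measured 340.2 and 180.1 FPKM in G1DM, 194 and 210.5 FPKM in G1TM, 232 and 261 FPKM in G3DM, 197, 354 and 254 FPKM in G3TM, 132, 137 and 157 FPKM in G5DM and 159, 242 and 232 FPKM in G5TM. Col6a2 measured 138 and 64.3 FPKM in G1DM, 72.1 and 81.7 FPKM in G1TM, 84.2 and 89.1 FPKM in G3DM, 79.7, 169 and 126 FPKM in G3TM, 47.4, 44.4 and 53.6 FPKM in G5DM and 69.1, 97.3 and 115 FPKM in G5TM. In G5 both were above DM in every TM library. Col6a2 rose by 0.91 (SE 0.308, limma adjusted p = 0.0217), and Col6a1 differed by 0.55 and was not called (adjusted p = 0.101). The Col6a2 call was lost without G5DM replicate 2, G5TM replicate 2 or G5TM replicate 3 (adjusted p = 0.0684, 0.0544 and 0.0852) and after quantile normalization, where the difference was 0.23. Col6a3, the longest of the chains, measured 156 and 96.3 FPKM in G1DM, 127 and 133 FPKM in G1TM, 97.3 and 108 FPKM in G3DM, 63.6, 65.9 and 81.1 FPKM in G3TM, 65.9, 55.4 and 66.7 FPKM in G5DM and 35.7, 48.9 and 58.4 FPKM in G5TM. Between genotypes it differed by 0.09, -0.55 and -0.41 in G1, G3 and G5 and was not called.

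Of the fibril-associated chains, Col12a1, which binds type I fibrils in tendon and skin, was the abundant one. It measured 266 and 168 FPKM in G1DM, 159.7 and 175 FPKM in G1TM, 126 and 118 FPKM in G3DM, 90.3, 39.1 and 53.8 FPKM in G3TM, 97.5, 158 and 133 FPKM in G5DM and 30.1, 41.0 and 44.3 FPKM in G5TM. It fell by 1.72 in G5 (SE 0.296, limma adjusted p = 0.000452) under all 23 alternatives. In G3 it fell by 1.07 (limma, adjusted p = 0.0258), a call lost without G3DM replicate 1 or 2 (adjusted p = 0.122 and 0.118) or G3TM replicate 2 or 3 (0.099 and 0.0728). Col14a1 measured 6.67 and 2.24 FPKM in G1DM, 1.83 and 1.62 FPKM in G1TM, 6.09 and 5.43 FPKM in G3DM, 1.45, 2.52 and 2.74 FPKM in G3TM, 1.43, 1.88 and 3.32 FPKM in G5DM and 0.454, 1.27 and 1.49 FPKM in G5TM. It was called lower in G3 (-1.09, limma adjusted p = 0.0317), a call lost without G3DM replicate 1 or 2 (adjusted p = 0.146 and 0.124) or G3TM replicate 1 or 2 (0.0793 and 0.0564). Col16a1 was at 18.0 to 44.6 FPKM and passed in no comparison, and the same held for the anchoring fibril gene Col7a1 (5.38 to 23.7 FPKM) and the transmembrane gene Col23a1 (0.399 to 1.93 FPKM).

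The 2 multiplexins of vascular and epithelial basement membranes were not called between genotypes in any generation. Col18a1, the source of endostatin, measured 28.6 and 18.1 FPKM in G1DM, 8.06 and 10.3 FPKM in G1TM, 17.7 and 16.6 FPKM in G3DM, 14.1, 41.4 and 34.9 FPKM in G3TM, 20.6, 8.12 and 7.89 FPKM in G5DM and 17.3, 16.2 and 33.8 FPKM in G5TM. Its highest values were again in G3TM replicates 2 and 3 and G5TM replicate 3, the libraries with the muscle and macrophage markers given above, whose part was not tested. It shares 8825 bases with Slc19a1 on the opposite strand. Col15a1 measured 2.52 and 1.72 FPKM in G1DM, 1.802 and 1.82 FPKM in G1TM, 1.56 and 3.11 FPKM in G3DM, 2.81, 4.71 and 4.43 FPKM in G3TM, 1.87, 0.342 and 0.383 FPKM in G5DM and 1.42, 1.11 and 3.02 FPKM in G5TM.

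The FPKM ratio of chains that assemble together differed between the 6 and the 9 libraries in 3 of 6 pairs. Type I collagen holds 2 alpha1 chains for each alpha2 chain in its common form, which is a count of protein chains. The FPKM ratio of Col1a1 to Col1a2 is a measure of RNA, scaled by gene lengths of 6563 and 12426 bases. It was 2.64 to 3.77 in the 9 libraries and 3.87 to 6.02 in the 6. The ratio of Col4a1 to Col4a2 was 0.958 to 1.22 in the 9 and 0.731 to 0.883 in the 6. That of Col6a1 to Col6a3 was 1.53 to 2.46 in the 9 and 3.10 to 5.37 in the 6. In these 3 pairs no value of the 6 overlapped a value of the 9, and no such share was computed over other gene pairs, while 17.1% and 9.63% of single genes were higher or lower without overlap. The ratio of Col6a1 to Col6a2 (2.47 to 3.08 in the 9, 2.02 to 2.49 in the 6) and that of Col5a1 to Col5a2 (1.15 to 1.81 and 1.43 to 2.79) overlapped, as did that of Col4a5 to Col4a6 (7.16 to 17.2 and 6.87 to 14.0). Genotype in the later generations and the split between libraries cannot be told apart in these ratios. With the GC content and length trends removed, the chains of the 3 pairs without overlap lay closer in their G5 genotype differences. Col6a1 and Col6a3 went from 0.55 and -0.41 to 0.006 and -0.26. Col1a1 and Col1a2 went from -0.02 and -0.85 to -0.46 and -0.75. Col4a1 and Col4a2 went from -0.60 and -0.10 to -0.91 and -0.61. The part of length and GC content in the ratios was not tested.

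**Figure D3:**
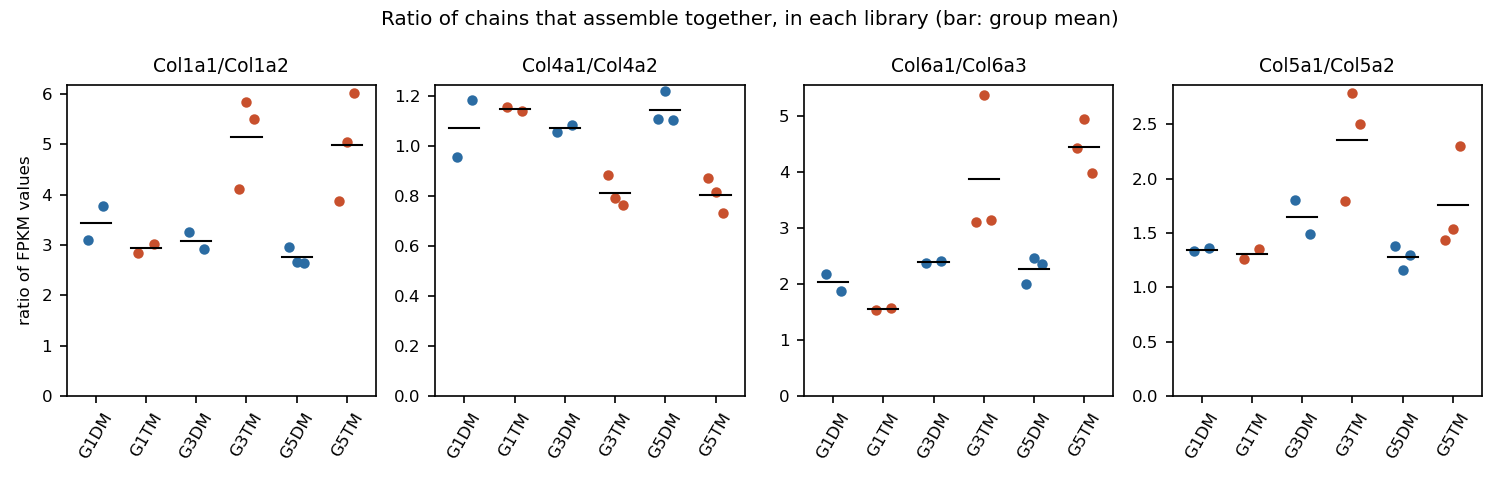
Ratio of the FPKM of 2 chains in each library, with DM in blue, TM in orange and a bar at each group mean. In the first 3 panels (Col1a1 to Col1a2, Col4a1 to Col4a2, Col6a1 to Col6a3) the 6 libraries of G3TM and G5TM are apart from the other 9 with G1TM among the 9, and in the last (Col5a1 to Col5a2) they overlap.

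Base composition moved with these differences. The longest annotated transcript of the 26 tested genes had a median GC content of 55.4%, against 49.9% over all tested genes. In G5, the median difference of all genes rose over 4 equal bins of GC content from -0.67 through -0.18 and 0.22 to 0.68, while in G1 it stayed between -0.03 and 0.04. No tested collagen gene lay in the lowest bin, and those of the next bins (5, 6 and 15 genes) had medians of -1.72, -1.20 and 0.18 in G5. In G3 they were -1.09, -1.10 and 0.04, beside -0.13, 0.05 and 0.39 for all genes. The collagen medians thus lay below those of all genes in each of these bins. After the trends of each library on GC content and length were removed, all 14 collagen calls in G5 remained, with Col8a1 at -2.69, Col4a5 at -2.03, Col11a1 at -1.14, Col12a1 at -1.02, Col5a2 at -0.42 and Col5a3 at 0.84. Col5a1 (-0.59) and Col4a2 (-0.61) were then called as well. In G3, 5 of 8 calls remained (Col10a1 -3.02, Col4a5 -1.72, Col4a6 -1.14, Col8a1 -1.12 and Col5a3 1.56), and Col12a1, Col14a1 and Col24a1 were lost (adjusted p = 0.0576, 0.0625 and 0.09). This joint fit was chosen after seeing the data. Of the 26 tested genes, 25 were longer than the median tested gene. With the length trend alone removed, Col1a2, Col3a1, Col4a1, Col5a2 and Col27a1 lost their G5 calls (limma, adjusted p = 0.701, 0.0626, 0.371, 0.261 and 0.321). The other G5 calls remained.

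**Figure D4:**
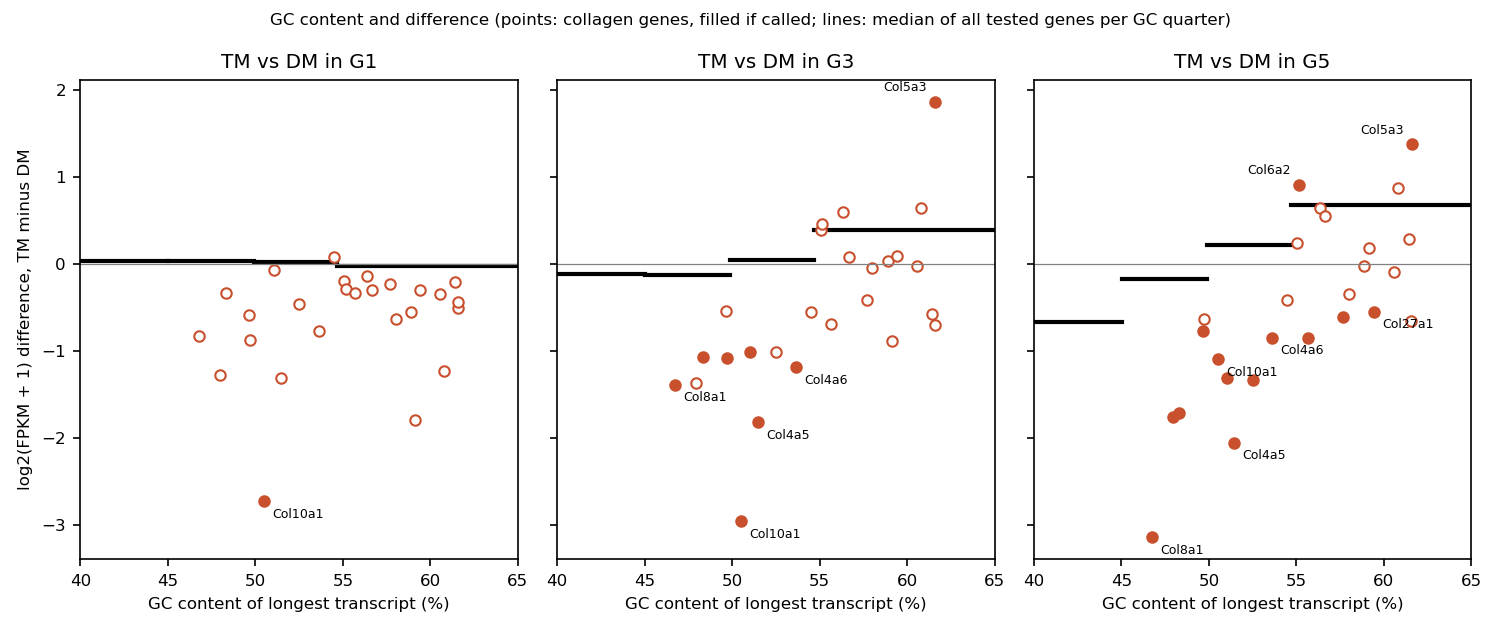
GC content of the longest transcript of each tested collagen gene against its difference of TM from DM on the log2(FPKM + 1) scale, filled where called, with black lines at the median of all tested genes in each of 4 GC bins (the axis shows 40% to 65%). The black lines are flat in G1 and rise to 0.68 in the highest bin in G5, and the medians of the points lie below the lines of all genes.

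Over the generations of DM, which lie within the 9 libraries, the collagen genes were not called except for 2. No gene of the 26 was called in G3 against G1 (0.214% of all genes, limma), with 6 at an unadjusted p under 0.05 and none by voom on recovered reads. In G5 against G1, none was called either (0.059% of all genes, 0.00737% higher and 0.0516% lower, limma), with 9 at an unadjusted p under 0.05 and none by voom. In G5 against G3, Col8a1 rose by 1.69 (SE 0.305, limma adjusted p = 0.0181) and Col10a1 fell by 1.98 (SE 0.323, limma adjusted p = 0.0114), where 4.98% of all genes were called (3.35% higher and 1.64% lower). Col8a1 had gone from 23.3 ± 1.43 FPKM (SD, n = 2) to 78.1 ± 14.5 FPKM (SD, n = 3), and Col10a1 from 11.7 ± 2.66 FPKM (SD, n = 2) to 2.26 ± 0.943 FPKM (SD, n = 3). Both calls were lost without G3DM replicate 1 (adjusted p = 0.166 for Col8a1 and 0.172 for Col10a1), G3DM replicate 2 (0.135 and 0.0715) or G5DM replicate 2 (0.0854 and 0.0538).

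Within TM, G5 against G3 gave no call among the 26 (0.0295% of all genes, 0.0221% higher and 0.00737% lower, limma), with 5 at an unadjusted p under 0.05 and none by voom. Both G1TM libraries had Xist at 1 FPKM or more and all 3 G3TM libraries had Y-linked RNA. Sex and generation thus cannot be told apart in G3TM against G1TM. Against G1, across the split, G3TM had 2 called higher and 3 lower (46.8% of all genes called, 25.2% higher and 21.6% lower) and G5TM had 6 lower (49.5% of all genes called, 23.5% lower). Col12a1 and Col8a1 fell in both under all 23 alternatives: Col12a1 by 1.52 in G3 (limma, adjusted p = 0.00378) and 2.11 in G5 (adjusted p = 0.000484), and Col8a1 by 1.65 (adjusted p = 0.00171) and 1.72 (adjusted p = 0.000996). Col6a3 fell by 0.89 in G3 (limma, adjusted p = 0.0118) and by 1.46 in G5 (adjusted p = 0.000782). The first of these Col6a3 calls was lost without G1TM replicate 1 (adjusted p = 0.0745) or replicate 2 (0.0661), and the second held under all 23 alternatives.

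Col5a2, Col3a1 and Col1a2 fell in G5TM against G1TM by 0.67, 1.11 and 0.77 (limma, adjusted p = 0.0147, 0.0244 and 0.044). All 3 calls were lost without G1TM replicate 1 (adjusted p = 0.0829, 0.1 and 0.138) or G1TM replicate 2 (0.0826, 0.106 and 0.17). The Col3a1 call was also lost without G5TM replicate 1 or 3 (0.0768 and 0.0562), and that of Col1a2 without any 1 of 7 further libraries (G3TM replicates 2 and 3, G5DM replicates 2 and 3 and every G5TM library, adjusted p from 0.0508 to 0.112). In G3TM against G1TM, Col18a1 rose by 1.49 (SE 0.471, limma adjusted p = 0.021), a call lost without G1TM replicate 1 or 2 (adjusted p = 0.14 and 0.0579) or G3TM replicate 2 or 3 (0.081 and 0.0698). Col4a2 was called higher at 0.68 (limma, adjusted p = 0.0491), and 15 of 23 alternatives lost that call, 10 of them by omitting 1 library (adjusted p from 0.0537 to 0.245).

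Whether the genotype difference itself changed with generation was tested by the difference of differences. From G1 to G3 no collagen gene passed (2.42% of all genes, limma), with 2 at an unadjusted p under 0.05 and none by voom. From G1 to G5, 3 of 26 passed (19.8% of all genes, 11.5% higher and 8.33% lower). For Col8a1 the change was -2.31 ± 0.432 (SE, limma adjusted p = 0.00581), and it held under all 23 alternatives. For Col10a1 the gap narrowed by 1.64 (SE 0.457, limma adjusted p = 0.0288), with the DM mean at 2.26 FPKM in G5, and for Col18a1 it went from -1.23 to 0.88, a change of 2.11 (SE 0.666, limma adjusted p = 0.0428). The Col10a1 term was lost under 10 of 23 alternatives, 5 of them by omitting G1DM replicate 1 or 2, G1TM replicate 1, G5DM replicate 2 or G5TM replicate 3 (adjusted p from 0.0534 to 0.142). The Col18a1 term was lost under 14 of 23, 11 of them by omitting 1 library of any group (adjusted p from 0.0506 to 0.154). These terms compare a G5 difference across the split with a G1 difference within the 9 libraries.

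The machinery that makes and reads collagen was followed in 42 genes, 40 of them tested. In G1, TM against DM gave no call (1.17% of all genes, limma), with 7 at an unadjusted p under 0.05 and none by voom. In G3, 2 rose and 9 fell, and in G5, 11 rose and 13 fell, against the shares of 32% and 58.7% over all genes. Crosslinking enzymes had the most calls for their number: in G3, 3 of 5 fell, and in G5, 2 rose and 3 fell. Lox, the lysyl oxidase that starts collagen crosslinks, measured 821 and 591 FPKM in G1DM, 535 and 455 FPKM in G1TM, 338 and 296 FPKM in G3DM, 265, 91.3 and 105 FPKM in G3TM, 435, 807 and 699 FPKM in G5DM and 118, 182 and 138 FPKM in G5TM. It fell by 2.12 in G5 (SE 0.366, limma adjusted p = 0.000459) under all 23 alternatives and by 1.21 in G3 (limma, adjusted p = 0.0379, lost under 9 of 23 alternatives, 6 of them by omitting 1 library of G1TM or G3DM, G3TM replicate 2 or G3TM replicate 3, adjusted p from 0.0505 to 0.169). Its relative Loxl1, which acts mainly on elastic fibres, rose by 1.41 in G5 (SE 0.261, limma adjusted p = 0.000714), from 141 ± 38.1 FPKM to 372 ± 61.2 FPKM (SD, n = 3 each), and by 0.53 after the GC content and length trends were removed. Loxl4 fell by 1.74 in G3 (SE 0.33, limma adjusted p = 0.0021).

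The 2 discoidin domain receptors, tyrosine kinases that bind triple-helical collagen, moved in opposite directions in G5. Ddr1, typical of epithelial cells, measured 33.0, 20.5 and 15.4 FPKM in G5DM and 42.9, 49.2 and 77.4 FPKM in G5TM and rose by 1.28 (SE 0.266, limma adjusted p = 0.00148). Ddr2, typical of fibroblasts, measured 29.5, 65.6 and 48.4 FPKM in G5DM and 10.6, 16.6 and 12.3 FPKM in G5TM and fell by 1.74 (SE 0.311, limma adjusted p = 0.000573). Both calls held under all 23 alternatives, with Ddr1 at 0.62 and Ddr2 at -1.04 after the GC content and length trends were removed. The summed epithelial markers were at 4.00 to 5.51 FPKM in G5DM, at 20.7 to 53.0 FPKM in G5TM and at 37.1 to 50.0 FPKM in G3DM, with Cdh1, Epcam, Esrp1 and Krt5 below 1 FPKM in every library, and their part in the Ddr1 difference was not tested. Of the 8 receptors, 3 fell in G3, and 1 rose and 4 fell in G5, where 32% and 58.7% of all genes were called.

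Among the other steps, Pcolce2, an enhancer of propeptide removal, rose by 1.91 in G5 (SE 0.343, limma adjusted p = 0.000576). Tll1, a propeptide protease, fell by 1.49 (limma, adjusted p = 0.017) although its groups overlapped, and it lost the call without G5DM replicate 2, G5DM replicate 3 or G5TM replicate 2 (adjusted p = 0.0765, 0.0743 and 0.0686). In G3 the prolyl isomerase Fkbp14 fell by 1.29 (SE 0.272, limma adjusted p = 0.00374) under all 23 alternatives. Plod3, which hydroxylates and glycosylates lysines, rose by 0.83 (limma, adjusted p = 0.0287), lost without G3DM replicate 1 or 2 or G3TM replicate 2 or 3 (adjusted p from 0.0648 to 0.221). The propeptide protease Adamts14 rose by 0.50 (limma, adjusted p = 0.038), lost without G5DM replicate 2 or any 1 of those 4 libraries or of the G1TM libraries (adjusted p from 0.0521 to 0.28). Of the 10 prolyl hydroxylation genes, 1 fell in G3, and 2 rose and 1 fell in G5. Of the 6 folding and export genes, 2 fell in G3, and 2 rose and 3 fell in G5. Beside these 2 lists, 32% of all genes were called in G3 and 58.7% in G5. Over the generations of DM, 1 of the 40 was called in each of 2 comparisons, where 0.214% and 4.98% of all genes were called. The crosslinking enzyme Loxl3 rose by 1.35 in G3 against G1 (limma, adjusted p = 0.0383) and fell by 1.52 in G5 against G3 (limma, adjusted p = 0.00476). The rise was lost under 15 of 24 alternatives, 9 of them by omitting 1 library (any of G1DM, G1TM or G3DM, G3TM replicate 2 or 3, or G5TM replicate 3, adjusted p from 0.0535 to 0.254). The fall was lost under 3, among them the omission of either G3DM library (adjusted p from 0.052 to 0.0853). Against G1TM, 11 rose and 5 fell in G3TM, where 46.8% of all genes were called (25.2% higher and 21.6% lower). In G5TM 12 rose and 9 fell, where 49.5% of all genes were called (26% higher and 23.5% lower). G5TM against G3TM gave no call (0.0295% of all genes, limma), with 2 at an unadjusted p under 0.05 and none by voom.

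The 13 chains below the filter were Col4a3, Col4a4, Col6a4, Col6a5, Col6a6, Col13a1, Col17a1, Col19a1, Col20a1, Col22a1, Col25a1, Col26a1 and Col28a1. Their highest value in any library was 1.07 FPKM, in Col25a1. Of the tested genes, Col24a1, Col4a6, Col10a1 and Col23a1 had at least 1 group wholly under 1 FPKM and passed the filter through other groups, so a count of calls over the 26 contains genes that had to differ to be tested.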

How the data were processed

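Polyadenylated RNA of 15 fibroblast libraries was sequenced. The values are FPKM per gene as the authors deposited them in 1 table. Per the submitters' processing notes, reads were handled with HISAT2 2.0.5 and featureCounts 1.5.0-p3, and CASAVA 1.8, DESeq2 1.20.0 and fastp are also named. The genome build is not given in the sources used here, and the coordinates of all 39 genes equal GENCODE vM21 on GRCm38. Here log2(FPKM + 1) was fitted with limma 3.58.1 (R 4.3.3, intensity trend) as 1 model of 6 group means over 13562 genes at 1 FPKM or more in at least 2 libraries. All p-values were Benjamini-Hochberg adjusted over those genes and called under 0.05. The fit was tested on simulated data. FPKM values were whole multiples of 1 read (100% of values, within 0.05 read), so voom on 17448588 to 29571111 recovered reads per library was an added alternative. Libraries were grouped by their labels. Replicate numbers did not pair the libraries. Members and lists were chosen with earlier results of these data known. Full values are given for the most abundant chains, for those central to a class and for the 3 largest differences of each comparison. Of the biosynthesis genes with a group mean of at least 5 FPKM, up to 3 of the largest called in each direction are named. For G3TM and G5TM against G1TM only counts of these genes are given.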

Additional observations from a re-analysis of the deposited data

Results flagged for a closer look

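The difference between TM and DM changed from G1 to G5 by an interaction test (limma, Benjamini-Hochberg adjusted) in 3 collagen genes: Col18a1 by 2.11 (SE 0.666, adjusted p = 0.0428), Col10a1 by 1.64 (SE 0.457, adjusted p = 0.0288) and Col8a1 by -2.31 (SE 0.432, adjusted p = 0.00581) on the log2 scale. Among the biosynthesis and receptor genes it changed upward in Ddr1 by 2.15 (adjusted p = 0.00731), Loxl1 by 1.56 (adjusted p = 0.0236) and P3h4 by 1.45 (adjusted p = 0.0163). It changed downward in Ddr2 by -1.62 (adjusted p = 0.0376), Plod2 by -1.53 (adjusted p = 0.03) and Sec23a by -0.98 (adjusted p = 0.0482). Of 23 alternatives, the terms of Ddr2, Plod2, Sec23a, Loxl1 and P3h4 were lost under 14, 10, 16, 8 and 2, and that of Ddr1 under 0. Omitting 1 library ended the Ddr2 call for 10 libraries (all of G1DM, G1TM and G3DM, G5DM replicates 2 and 3, G5TM replicates 1 and 3, adjusted p from 0.0517 to 0.151). It ended the Sec23a call for those 10 and G3TM replicate 2 (adjusted p from 0.0575 to 0.168). The Plod2 call ended for 7 libraries (all of G1DM and G1TM, G5DM replicates 2 and 3, G5TM replicate 1, adjusted p from 0.0534 to 0.104). The Loxl1 call ended for 5 (G1DM replicate 1, G1TM replicate 1, G5DM replicates 2 and 3, G5TM replicate 3, adjusted p from 0.0504 to 0.126), and the P3h4 call without G1TM replicate 1 (adjusted p = 0.0876). From G1 to G3 the same test was passed by Loxl3 at -1.64 (adjusted p = 0.0167), lost without any 1 of the G1DM and G1TM libraries or G3DM replicate 2 (adjusted p from 0.057 to 0.0991) and also with the replicate block. Each sets a difference across the 6 and 9 libraries against one within the 9.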

How the results depend on the processing

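Of the called collagen differences, 1 reversed: Col27a1 in G5 was at 0.196 (adjusted p = 0.321) with the length trend removed. The counts listed next are those that moved from 0 or by more than 1.5-fold, and smaller moves are left out. By voom, for instance, TM against DM went from 8 to 11 in G3 and from 14 to 15 in G5 (31.2% and 58.1% of all genes). For TM against DM in G1 the count of called collagen genes went from 1 to 2 with quantile normalization, with the length trend removed, by voom and without the G3TM and G5TM libraries. In G3 it went from 8 to 5 with the length trend removed and with the GC content and length trends removed. G5 against G1 in DM went from 0 to 1 with quantile normalization. G5 against G3 in DM went from 2 to 1 with a pseudocount of 0.1, to 4 with the length trend removed and to 0 with only the groups compared. G3 against G1 in TM went from 5 (2 higher, 3 lower) to 3 with no filter, 9 with the length trend removed (7 higher, 2 lower), 3 with both trends removed, 3 with the replicate block and 8 by voom. G5 against G1 in TM went from 6 to 10 with only the groups compared. The change of the difference from G1 to G5 went from 3 to 1 with no filter, 7 with quantile normalization and 1 with both trends removed. The cause was not tested. The share of all genes called moved as well. For G3 against G1 in TM it was 46.8% as reported, 16% with no filter, 41.4% with the length trend removed, 29.7% with both trends removed, 39.9% with the replicate block and 47.7% by voom. For TM against DM in G3 it was 32% as reported and with the length trend removed and 36.1% with both trends removed. In G1 it was 1.17% as reported, 3.01% with quantile normalization, 1.88% with the length trend removed, 1.54% by voom and 0.435% without the G3TM and G5TM libraries. For the change from G1 to G5 it was 19.8% as reported, 3.75% with no filter, 21.2% with quantile normalization and 10.3% with both trends removed. For G5 against G3 in DM it was 4.98% as reported, 4.81% with a pseudocount of 0.1, 5.44% with the length trend removed and 0% with only the groups compared. For G5 against G1 it was 0.059% in DM as reported and 0.118% with quantile normalization, and 49.5% in TM as reported and 55.5% with only the groups compared.

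Leaving out 1 library gave 0 to 3 called genes for TM against DM in G1, 4 to 12 in G3 and 10 to 16 in G5. It gave 0 to 0, 0 to 2 and 0 to 6 in DM (G3 against G1, G5 against G1, G5 against G3) and 2 to 12, 3 to 8 and 0 to 0 in TM, and 0 to 2 and 1 to 7 for the changes to G3 and G5. In the same fits the share of all genes called ran from 0.155% to 2.62% in G1, from 11.4% to 39.3% in G3 and from 44.8% to 65.8% in G5. It ran from 0.0147% to 11.3%, 0.0295% to 0.973% and 0.103% to 22.9% in DM, from 13.1% to 54.5%, 21.4% to 56.7% and 0.0147% to 0.111% in TM, and from 0.59% to 8.02% and 3.16% to 42.4% for the changes. A lone library left in a group was assumed to vary like the other groups. Same-numbered libraries did not deviate together (9 of 33 pairs above a correlation of 0.1, median -0.069), so the block on replicate number pairs no libraries. The planned edgeR and DESeq2 fits on recovered reads were not run, and voom on those reads was run in their place. The voom, joint-trend and 9-library fits were chosen after seeing the data.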
